A study of Rattus norvegicus with 8 samples.

Results

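Cyclins, cyclin-dependent kinases and replication genes were followed in cultured rat pulmonary artery smooth muscle cells through 4 h with S-nitrosoglutathione, GSNO, which releases nitric oxide. The 10 genes were the D-type cyclins Ccnd1, Ccnd2 and Ccnd3, the mitotic cyclin Ccnb1, the kinases Cdk1, Cdk2 and Cdk4, the replication genes Pcna and Top2a, and the phosphatase Cdc25b. They were chosen by symbol: every probe set (a group of short oligonucleotides read together as 1 signal) annotated to 1 of these symbols alone was taken, which gave 25 probe sets of the 7018 with a single symbol, and 10 of the 4737 genes these cover. Per the labels' protocols, the primary cells grew out of artery explants of adult Sprague-Dawley rats after the endothelium and adventitia had been removed. The number of animals behind them is not given in the sources used here. The groups were untreated cells and cells given GSNO for 1 h, 2 h or 4 h, with 2 arrays each, numbered 1 and 2. The series design gives the GSNO concentration as 100 μmol/L and the treatment protocol as 100 mmol/L, so the dose is left unsettled. The untreated cells have no stated time, so time in culture and GSNO cannot be told apart. The 1 h, 2 h and 4 h groups were all set against the same 2 control arrays.

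Cells leave the resting state when growth signals raise D-type cyclins, which bind and activate Cdk4 and its relative Cdk6. Cdk2 then drives entry into DNA synthesis, where Pcna clamps the polymerases to the template, and Cdk1 with cyclin B drives entry into mitosis after Cdc25 phosphatases have removed its inhibitory phosphates. Transcripts of the mitotic genes are made mainly late in the cycle, so in a mixed culture their level also follows the share of dividing cells, and in bulk RNA fewer dividing cells and less transcript per cell cannot be told apart. Nitric oxide donors are known to slow the growth of cultured smooth muscle cells.

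All 10 genes were kept by the filter on dim signals, through 22 of their 25 probe sets. The probe sets left out were 1 each of Ccnd1, Ccnd3 and Cdc25b, with highest signals of 45.7, 70.1 and 57.3. Median signal per array lay between 100.0 and 141.2. Arrays with the same number deviated together from their group means (correlations of 0.387 to 0.569 over the 6 pairs of groups), and the array records show that the arrays numbered 1 and 2 were scanned on different days, with different chip lots and fluidics protocols. The records also name 3 experiments, and on the arrays numbered 1 the comparisons of 1 h and 4 h with control are made between different experiments. A fit that allows for the array number alone does not remove this. The series design speaks of independent preparations without tying them to the numbers. If both arrays of a group share a preparation, the p-values reflect technical spread alone. Of the smooth muscle marker list, 8 of 9 measured genes were kept and 1 lay below the 40th percentile of every array. Acta2, smooth muscle actin, read at least 6747 in each of its 3 probe sets, and Cnn1, calponin, at least 2026, while the 3 probe sets of Myh11, smooth muscle myosin, had lowest signals of 120.2, 1277 and 2187. All 8 genes of the fibroblast and adventitia list were kept too, with a summed signal of 31314 to 45460 per array. Of the endothelial list 3 of 5 measured genes were kept, with sums of 313 to 667. Its defining gene Vwf, von Willebrand factor, reached 109.1 at most, and Pecam1 reached 129.3 and the 40th percentile on 5 of 8 arrays. Of the leukocyte list 3 of 5 were kept (408 to 730), and its defining gene Ptprc reached 248.8 in 1 probe set and 29.2 and 4.23 in the others. The brightest of these reached the 40th percentile on 7 of 8 arrays, the others on none. The lung epithelium list had 4 of 8 kept and the cardiac and skeletal muscle list 6 of 8. At 4 h against control, the sums did not overlap for the fibroblast list (31314 to 40301 against 43252 to 43950). Nor did they for the cardiac and skeletal muscle list (516 to 581 against 784 to 918). At 2 h the fibroblast list (33629 to 36471) and the endothelial list (401 to 426 against 504 to 667) lay below control. At 1 h the cardiac and skeletal muscle list lay just below control (684.2 to 784.06 against 784.23 to 917.7). The part of these shifts in the results at each time was not tested.

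Ccnd1, which links growth signals to the cell cycle, did not differ beyond the spread between arrays at any exposure time. Its probe set D14014_at read 729 and 2712 on control arrays 1 and 2, 762 and 2693 at 1 h, 719 and 2021 at 2 h, and 741 and 1928 at 4 h. On the arrays numbered 1 the signal stayed between 719 and 762, while on those numbered 2 both later times lay below control and 1 h, so the groups overlapped widely. The log2 difference at 4 h was -0.23 ± 0.84 (SE; limma adjusted p = 0.956), and -0.23 ± 0.19 in a fit that blocked on the array number (adjusted p = 0.52). A second Ccnd1 probe set, X75207_s_at, read 302 and 469 at 4 h against 295 and 970 in control. By array number its difference was 0.03 for number 1 and -1.02 for number 2 (-0.49 ± 0.61, adjusted p = 0.825). The remaining kept Ccnd1 probe sets gave 0.12 and -0.15 at 4 h.

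Ccnd2, a second D-type cyclin, was also not called at any time. Probe set rc_AA899106_at read 919 and 1555 at 4 h against 769 and 2234 in control, an increase on one array number and a decrease on the other. Probe set D16308_at went the opposite way on each number, with 283 and 1222 at 4 h against 562 and 947 in control. The 2 probe sets thus gave 0.25 and -0.94 for array number 1, and -0.52 and 0.36 for number 2.

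Ccnd3, the third D-type cyclin, was highest at 2 h in its brightest probe set. D16309_g_at read 2431 and 1414 in control, 2608 and 2055 at 1 h, 2738 and 2920.2 at 2 h, and 2057 and 2099 at 4 h. Both 2 h arrays lay above both control arrays, as in 12.9% of all kept probe sets. The log2 difference was 0.60 ± 0.29 (adjusted p = 0.939, and 0.26 with the block). By array number it was 0.17 for number 1 and 1.04 for number 2. The other kept probe sets, D16309_at and U49935mRNA_s_at, gave 0.44 and 0.12 at 2 h with overlapping groups.

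The kinases showed no called difference either. Cdk4, the partner of the D-type cyclins, read 3207 and 3532 at 4 h against 4059.6 and 3030.0 in control, and its log2 differences of -0.21, -0.13 and -0.06 at 1 h, 2 h and 4 h lay within an SE of 0.25. Cdk2, the kinase of S phase entry, was measured by 2 probe sets. In D28753_i_at it read 118 and 85.7 at 4 h against 146 and 73.1 in control, with -0.04 ± 0.56 (adjusted p = 0.992). In D28754_s_at it read 31.9 and 53.5 in control, 7.65 and 15.6 at 1 h, 127.6 and 65.6 at 2 h, and 9.13 and 67.0 at 4 h, signals near the dim end of the array. Both 1 h arrays lay below both controls and both 2 h arrays above them (-0.95 ± 0.62 and 0.85 ± 0.62, adjusted p = 1.00 for both), whereas D28753_i_at gave 0.27 at 1 h. Of all kept probe sets, 13% lay below both controls in this way at 1 h and 12.9% above them at 2 h. Cdk1, the mitotic kinase, read 330.2 and 121 in control, 269 and 127 at 1 h, 442 and 155 at 2 h, and 212 and 128 at 4 h. The array numbered 1 lay above the one numbered 2 in each group, with overlap at every time, and the difference at 4 h was -0.26 ± 0.61 (adjusted p = 0.923).

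Promoter sequence is shown for Ccnb1, Cdk1 and Top2a, whose brightest probe sets lay lower on the arrays numbered 2 in all 4 groups. Of all kept probe sets, 16% did so. The Ccnb1 difference was not called, and 1 probe set each of Ccnd3 and Cdk2, not shown, was called in the same direction. That of Cdk2, D28753_i_at, is its brightest and was also lower in all 4 groups, so the genes shown are a selection. Promoter sequence of Cdc25b is shown too, since it had the largest positive difference among the members at 4 h. Mitotic genes are known for promoters with repeated CCAAT boxes, bound by the factor NF-Y, and a TTTGAA element called the cell cycle homology region. Each stretch runs 5′ to 3′ on the gene's strand, from 250 bases before the annotated start to 50 after it, and is 300 bases long, from RefSeq annotation on GRCr8. They lie at chr2:33655176-33655475 (minus strand), chr20:19265043-19265342 (plus strand), chr10:84473044-84473343 (minus strand) and chr3:138859923-138860222 (plus strand). Capitals mark CCAAT or TTTGAA on either strand (ATTGG and TTCAAA on the other strand), which do not share letters.
Ccnb1: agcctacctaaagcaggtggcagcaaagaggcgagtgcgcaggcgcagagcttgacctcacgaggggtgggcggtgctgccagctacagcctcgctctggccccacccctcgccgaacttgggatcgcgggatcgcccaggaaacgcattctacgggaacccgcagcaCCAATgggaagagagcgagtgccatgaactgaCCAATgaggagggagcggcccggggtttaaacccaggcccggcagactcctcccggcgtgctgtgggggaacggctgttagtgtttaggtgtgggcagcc
Cdk1: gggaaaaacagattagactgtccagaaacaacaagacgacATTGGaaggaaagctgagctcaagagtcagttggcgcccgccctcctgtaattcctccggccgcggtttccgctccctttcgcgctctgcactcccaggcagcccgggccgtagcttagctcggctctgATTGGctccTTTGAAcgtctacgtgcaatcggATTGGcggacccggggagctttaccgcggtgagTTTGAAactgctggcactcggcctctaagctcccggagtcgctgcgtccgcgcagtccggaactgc
Top2a: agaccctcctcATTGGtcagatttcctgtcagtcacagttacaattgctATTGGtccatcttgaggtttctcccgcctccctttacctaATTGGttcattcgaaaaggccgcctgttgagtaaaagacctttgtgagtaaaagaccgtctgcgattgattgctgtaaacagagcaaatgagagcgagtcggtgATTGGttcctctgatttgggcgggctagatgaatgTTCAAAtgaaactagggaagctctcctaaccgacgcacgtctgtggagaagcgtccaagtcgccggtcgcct
Cdc25b: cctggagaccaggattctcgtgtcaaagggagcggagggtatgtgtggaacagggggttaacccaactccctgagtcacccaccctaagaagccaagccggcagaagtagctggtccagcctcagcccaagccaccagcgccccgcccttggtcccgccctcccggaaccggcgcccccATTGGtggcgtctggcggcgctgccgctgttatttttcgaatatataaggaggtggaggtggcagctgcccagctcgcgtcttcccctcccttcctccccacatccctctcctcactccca
Ccnb1 held 2 CCAAT matches and no TTTGAA, Cdk1 held 3 and 2, Top2a held 4 and 1, and Cdc25b held 1 and none. Of 33469 rat promoters of this length, 37.5% held CCAAT and 11.2% held it at least 2 times, while 18.3% held TTTGAA. Of the other members, 1 CCAAT stood in each of Ccnd3, Cdk2 and Pcna and none in Cdk4. TTTGAA stood in none of them. The same search covered TGACGT, the core of the cAMP response element (7.94% of promoters), which stood once each in Ccnd3 and Cdk2. GCGGGAA, an E2F core (4.21%), stood once, in Cdk2, and GGGCGG, the Sp1 box (33.1%), with which it can share letters, stood in all 8 promoters searched. These matches describe letters in a window and do not show binding. Ccnd1 and Ccnd2 were not matched to a promoter.

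Ccnb1, the B-type cyclin that activates Cdk1, read 252 and 99.2 in control, 244 and 178 at 1 h, 205 and 135 at 2 h, and 177 and 119 at 4 h in probe set X64589_at. The groups overlapped at every time, and the 4 h difference was -0.12 ± 0.45 (adjusted p = 0.956). The dimmer probe set rc_AA998164_s_at read 35.0 and 44.0 at 4 h against 120.4 and 69.0 in control. Both 4 h arrays and both 2 h arrays lay below both controls there, with -0.90 ± 0.52 at 4 h (adjusted p = 0.594, and 0.288 with the block). Of all kept probe sets, 27.5% lay below both controls in this way at 4 h and 17% at 2 h.

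Top2a, the topoisomerase that untangles replicated chromosomes, had the largest negative difference among the members at 4 h. Probe set rc_AA899854_at read 788 and 341 in control, 535 and 266 at 1 h, 513 and 310.3 at 2 h, and 389 and 51.9 at 4 h. Within each array number the 4 h array was the lowest of the 4, but the 4 h array numbered 1 lay above the control array numbered 2, so the groups overlapped. The difference was -1.65 ± 0.78 and was not called (adjusted p = 0.497). With the block it was -1.65 ± 0.38 and passed (adjusted p = 0.0254), with -0.98 for array number 1 and -2.31 for number 2. The call was lost when blocking on the experiment named in the array records (-2.04, adjusted p = 0.0601) and with the block and a common median scaling (-1.44, adjusted p = 0.065). The 4 h array numbered 2 weighed most: without it the difference was -0.40 (adjusted p = 0.807), and -0.87 with the block (adjusted p = 0.0905). Without the control arrays numbered 1 and 2 the blocked fit gave -1.75 and -1.54 (adjusted p = 0.146 and 0.182). The other Top2a probe sets, D14045_s_at and Z19552cds_at, gave -0.48 and -0.35 at 4 h, neither called with or without the block, and none of the 3 was called at 1 h or 2 h.

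Pcna, the polymerase clamp, read 2120.3 and 2194 at 4 h against 2363 and 1423 in control in probe set M24604_at, a difference of 0.23 ± 0.32 (adjusted p = 0.844). Its companion M24604_g_at gave the same 0.23. In both probe sets the arrays numbered 1 gave a negative difference at 4 h (-0.15 and -0.18) and those numbered 2 a positive one (0.62 and 0.63).

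Cdc25b, a phosphatase that activates cyclin-dependent kinases before mitosis, stood above control at 4 h. Probe set D16237_at read 175 and 155 in control, 138 and 184 at 1 h, 206 and 206 at 2 h, and 324 and 457 at 4 h. Both 4 h arrays lay above the other 6 arrays. The log2 difference at 4 h was 1.13 ± 0.30, a 2.19-fold higher signal, and did not pass without the block (adjusted p = 0.132). With the block it was 1.13 ± 0.27 and passed (adjusted p = 0.0305), at 0.81 for array number 1 and 1.44 for number 2. Blocking on the experiment named in the array records instead gave 1.38 (adjusted p = 0.0526). At 4 h against 1 h it was 1.17 higher, also called only with a block (adjusted p = 0.037 with the array number and 0.0443 with the recorded experiment, against 0.187 without). Leaving out single arrays kept the 4 h difference between 0.91 and 1.35 with the block, and 3 of 8 such fits passed, the others giving adjusted p up to 0.244. Without the control array numbered 2 the blocked fit gave 0.91 (adjusted p = 0.244), and without the control array numbered 1 it gave 1.35 (adjusted p = 0.0998). The second kept Cdc25b probe set, rc_AI012942_at, was dim and did not move the same way on both numbers: 82.9 and 26.0 at 4 h against 33.9 and 39.5 in control (0.28 ± 0.53, adjusted p = 0.906). The third, not kept, read 8.81 and 11.2 at 4 h against 15.0 and 37.4 in control.

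**Figure D1:**
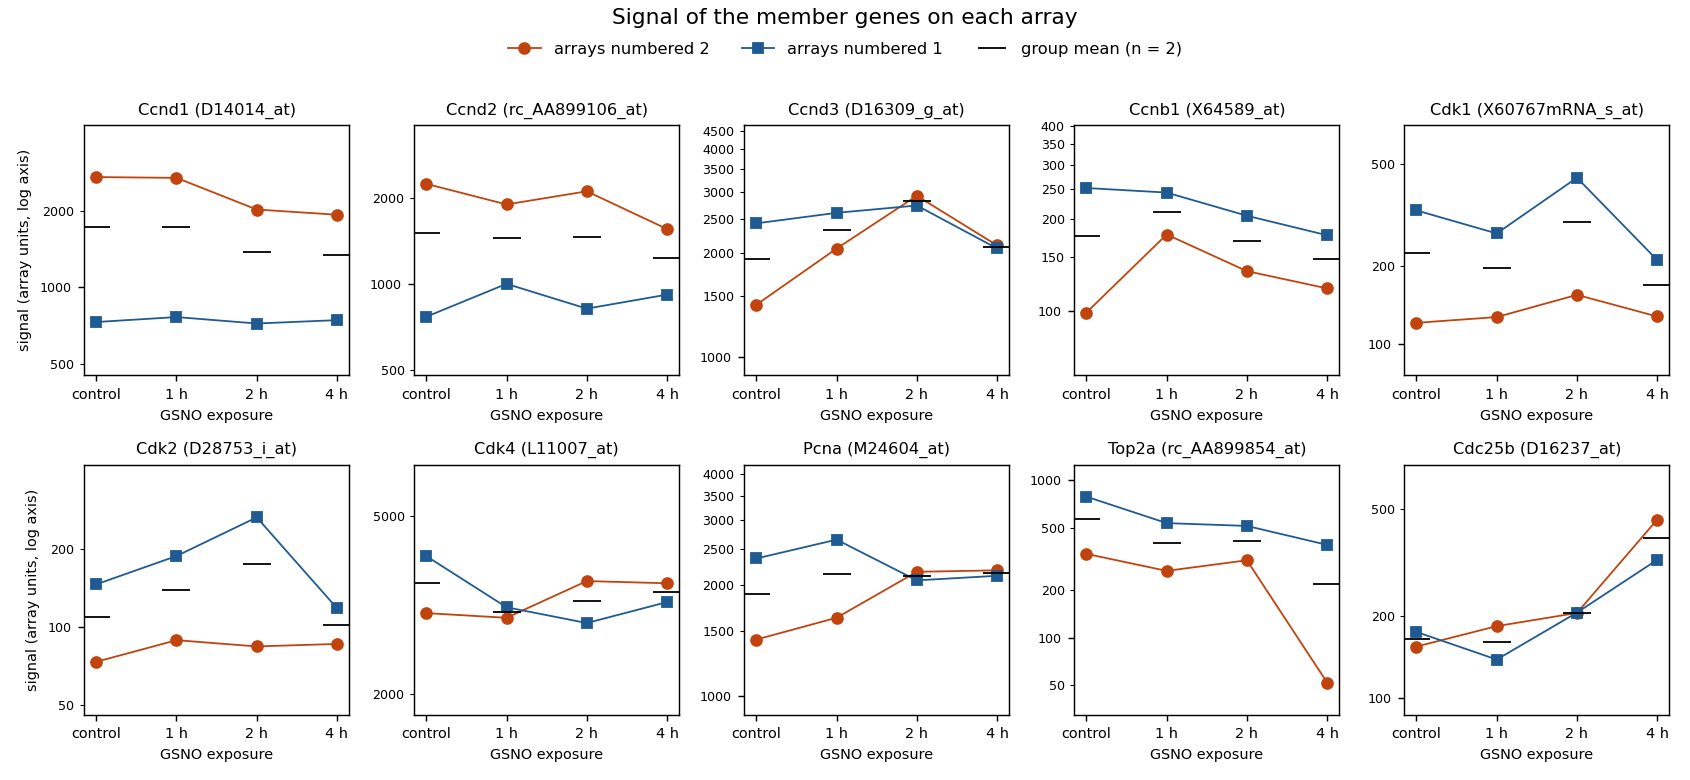
Signal in array units, on a log axis of its own in each panel, of the brightest kept probe set of each member gene on all 8 arrays, against GSNO exposure (control, 1 h, 2 h, 4 h). Circles are arrays numbered 2, squares arrays numbered 1, and dashes group means. Cdc25b at 4 h (457 and 324) lies above its other arrays. Ccnd1, Ccnd2, Cdk1, Cdk2 and Top2a keep the 2 array numbers apart throughout.

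Counted together, 0 of the 22 member probe sets passed at 1 h, 2 h or 4 h against control without the block, where 0.527%, 0.97% and 1.53% of all 5877 kept probe sets did. Of all, 0.493%, 0.783% and 0.953% were called higher at these times and 0.034%, 0.187% and 0.579% lower. At an unadjusted p under 0.05 there were 0, 0 and 1 member probe sets, against 3.01%, 6.13% and 11.1% of all. With the block 0, 0 and 2 member probe sets passed, against 1.34%, 3.16% and 7.93% of all, and 0, 1 and 2 did so unadjusted, against 5.73%, 12.1% and 21.2%. The 2 at 4 h were the Cdc25b probe set, where 4.25% of all were called higher, and the Top2a probe set, where 3.68% were called lower, so the members' share of 9.09% was near that of all probe sets. The F test over the 3 times called 0 member probe sets without the block (1.14% of all) and 0 with it (5.94%). Between exposure times the fit without the block called 0 member probe sets at 4 h against 1 h (0.476% of all), and the block called 1, Cdc25b, higher (5.1% of all, 2.65% higher and 2.45% lower). At 2 h against 1 h and at 4 h against 2 h, 0 were called in either fit, where 0% of all were called without the block and 0.034% and 0.544% with it (0.34% lower at 4 h against 2 h). At an unadjusted p under 0.05, 1 member probe set passed without the block at 2 h against 1 h, at 4 h against 1 h and at 4 h against 2 h (2.79%, 9.04% and 5.62% of all), and 1, 2 and 2 passed with it (7.33%, 18% and 12.8%).

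The sizes of the differences say the same in another form. The median log2 difference of the 22 probe sets was 0.04 at 1 h, 0.13 at 2 h and -0.14 at 4 h, beside -0.05, -0.06 and -0.16 for all kept probe sets. At 4 h 4 of 22 lay lower on both array numbers, where 42.8% of all did, and 1 lay higher on both, where 20.9% did. The remaining 17 had opposite signs on the 2 array numbers. Groups at 4 h did not overlap for 1 member probe set that was higher, Cdc25b D16237_at (13.4% of all), and 1 that was lower, Ccnb1 rc_AA998164_s_at (27.5% of all). At 2 h the groups did not overlap for 4 member probe sets that were higher and 1 that was lower (12.9% and 17% of all). At 1 h this held for 0 that were higher and 1 that was lower (10.1% and 13% of all). Scaling the arrays to a common median moved the median of all kept probe sets at 4 h to 0.04 and that of the members to 0.06, so the sign of small differences at 4 h depends on the scaling. A difference that misses the threshold with 2 arrays a group does not show equal levels: the SE of the members without the block ran as high as 0.84.

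**Figure D2:**
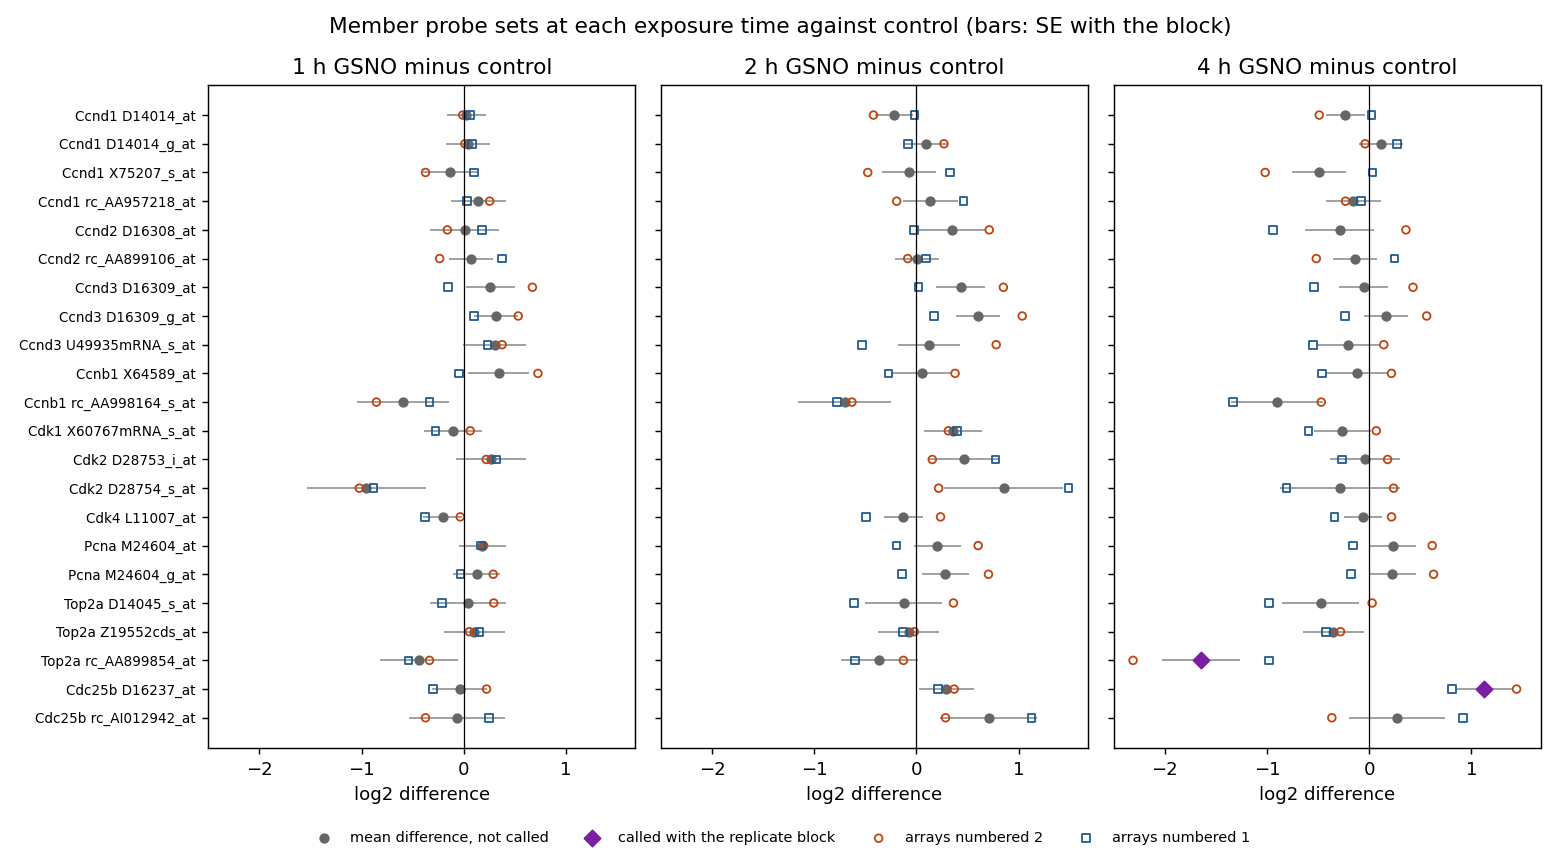
Log2 difference of signal from control for the 22 kept member probe sets at 1 h, 2 h and 4 h of GSNO. Filled points are means over both array numbers with SE bars from the blocked fit, diamonds mark the 2 probe sets called with the block (Cdc25b at 1.13 and Top2a at -1.65, both at 4 h), and open symbols are the arrays numbered 2 (circles) and 1 (squares).

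Many members also differed between the array numbers. In the blocked fit the array number itself was tested as a term after the values had been seen, and 11 of 22 member probe sets passed, 5 higher and 6 lower on the arrays numbered 2, where 13.3% and 8.42% of all kept probe sets did (21.7% in either direction). Preparation, chip lot, fluidics protocol and scan day may all differ between the numbers and cannot be told apart, and which of them moved the members was not tested. Among the probe sets that passed, those of Ccnd1 and Ccnd2 stood higher on the arrays numbered 2. Those of Cdk1 and Top2a, and 1 each of Ccnd3 and Cdk2, stood lower.

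Ccnd1 D14014_at averaged 2338 ± 422 (SD, n = 4) on the arrays numbered 2 and 738 ± 18.6 on those numbered 1, a log2 difference of 1.62 ± 0.13 (SE; limma adjusted p = 9.79e-05). The lowest array numbered 2, at 1928, lay well above the highest numbered 1, at 762. D14014_g_at and X75207_s_at gave 1.12 and 1.07 (adjusted p = 0.0014 and 0.0039), while rc_AA957218_at gave 0.32 and did not pass (adjusted p = 0.272). Both Ccnd2 probe sets passed, rc_AA899106_at at 1.12 ± 0.15 (adjusted p = 0.0014) and D16308_at at 1.15 ± 0.24 (adjusted p = 0.00811), each with the same sign in all 4 groups. D16308_at passed in 6 of 8 fits with 1 array left out, the others giving adjusted p up to 0.0577. Of all kept probe sets, 24.6% were higher on the arrays numbered 2 in all 4 groups and 16% were lower. Among the 22 member probe sets this held for 5 and 7.

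Cdk1 averaged 133 ± 15.3 on the arrays numbered 2 and 313 ± 98.7 on those numbered 1, a difference of -1.08 ± 0.20 (adjusted p = 0.00495) that was negative in all 4 groups. The 3 Top2a probe sets gave -1.32, -0.95 and -0.66 (adjusted p = 0.00738, 0.0294 and 0.048), again negative in all 4 groups. With 1 array left out, rc_AA899854_at passed in 8 of 8 fits and D14045_s_at in 2 of 8, while Z19552cds_at passed in 0 of 8 (adjusted p of 0.0673 to 0.178) and was also lost under quantile normalization (0.0541). Ccnb1 X64589_at gave -0.66 ± 0.21 with the same sign in all 4 groups and lay just past the threshold (adjusted p = 0.0505), passing under common median scaling (adjusted p = 0.0381) and quantile normalization (0.0371) and in 0 of 8 fits with 1 array left out (0.065 to 0.227). Ccnd3 D16309_at gave -0.74 (adjusted p = 0.0126) and Cdk2 D28753_i_at -0.89 (adjusted p = 0.0265), which passed in 8 and 2 of 8 such fits. The other kept probe sets of these genes did not pass. Ccnd3 D16309_g_at, its brightest, gave -0.25 (adjusted p = 0.288) and U49935mRNA_s_at -0.48 (adjusted p = 0.144). Cdk2 D28754_s_at gave 0.40, in the opposite direction (adjusted p = 0.533). Cdk4 (-0.01 ± 0.13), both Pcna probe sets (-0.32 each) and both Cdc25b probe sets (0.17 and -0.55) did not pass. Nor did the dimmer Ccnb1 probe set, rc_AA998164_s_at (-0.53, adjusted p = 0.279), which at 4 h was higher on the array numbered 2 (0.22). The smooth muscle marker list moved with the numbers too: its summed signal, with 1 probe set for each of 9 measured genes, was 54117 to 67180.0 on the arrays numbered 2 and 80558 to 89641 on those numbered 1. The lung epithelium list was likewise apart, at 565 to 795 on the arrays numbered 2 and 859 to 1308 on those numbered 1. The part of either list in the members' differences was not tested.

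**Figure D3:**
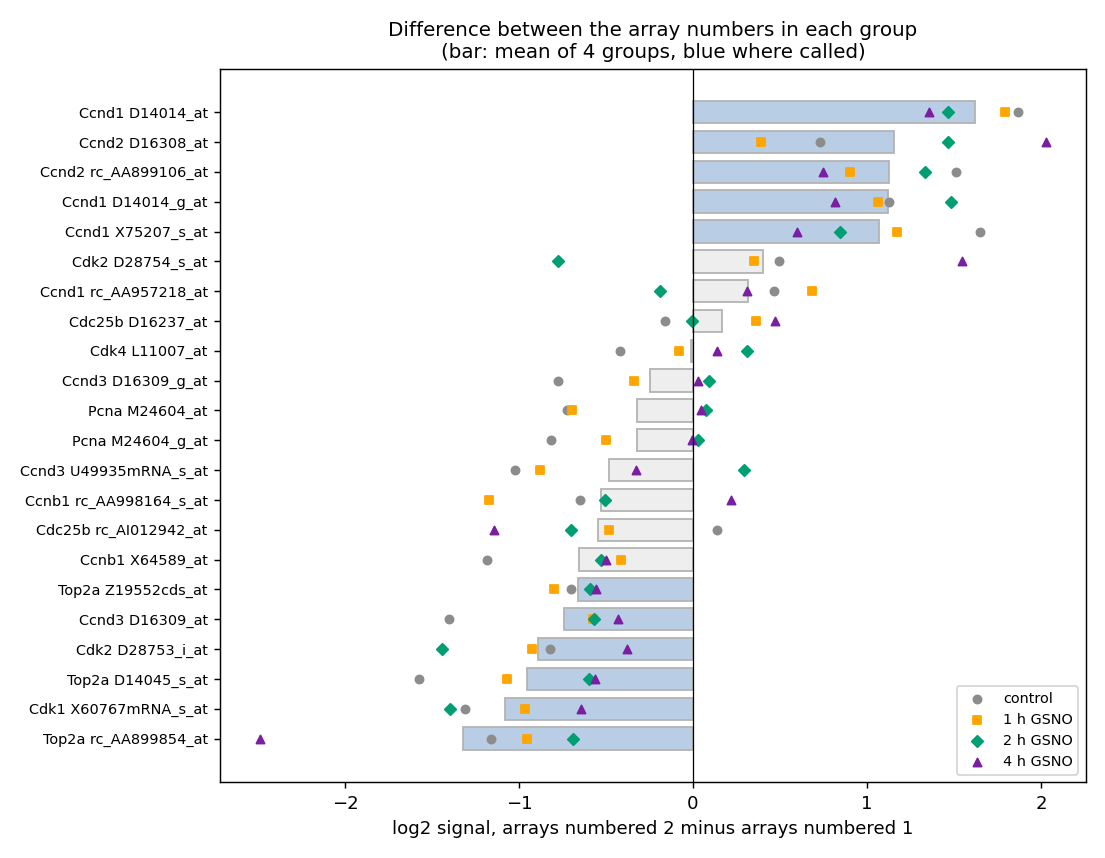
Log2 signal on the array numbered 2 minus that on the array numbered 1 for each kept member probe set. Bars are means over the 4 groups (blue where called), and symbols the single groups; Ccnd1 D14014_at lies between 1.35 and 1.87 in every group and Cdk1 between -1.40 and -0.65.

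The other genes of the pathway were read from a list of 92 cell cycle genes without the members, of which 42 were on the array with 55 probe sets, and 36 genes were kept with 47. Cdkn1a, which encodes the inhibitor p21 that blocks cyclin-dependent kinases, was the 1 gene called without the block. Its probe set L41275cds_s_at read 382 and 257 in control, 768 and 506 at 1 h, 850.5 and 1224 at 2 h, and 1014 and 1350.0 at 4 h. Every GSNO array lay above both controls. Taken time by time, 10.1%, 12.9% and 13.4% of all kept probe sets did so at 1 h, 2 h and 4 h. The log2 difference at 4 h was 1.83 ± 0.33 (adjusted p = 0.0429; 0.00408 with the block). Blocking on the recorded experiment lost the call (adjusted p = 0.0624), as did a fit with no variance trend (0.0741). It rested on all 8 arrays, since leaving out any 1 gave adjusted p between 0.0527 and 0.217 without the block, and with it 7 of 8 such fits passed. U24174_at, its other probe set, gave 1.48 at 4 h (adjusted p = 0.0838; 0.0048 with the block).

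With the block 5 of 47 probe sets passed at 4 h, where 7.93% of all did: both of Cdkn1a higher (4.25% of all), and Mcm7, Racgap1 and Stmn1 lower (3.68% of all). Mcm7, a subunit of the replicative helicase, read 486 and 499 at 4 h against 806 and 1076 in control, a difference of -0.89 ± 0.20 (adjusted p = 0.0226 with the block and 0.146 without). It was also called at 2 h with the block (-0.91, adjusted p = 0.0376), beside both Cdkn1a probe sets, 3 of 47 in all where 3.16% of all were called. Racgap1, which acts in the division of the cell body, read 177 and 118 at 4 h against 402 and 236 in control (-0.99, adjusted p = 0.0486 with the block and 0.286 without). Stmn1, a regulator of microtubules in the mitotic spindle, read 324 and 351 at 4 h against 655 and 574 in control (-0.82, adjusted p = 0.0428 with the block and 0.204 without). At 4 h these 3 calls, in the order Mcm7, Racgap1 and Stmn1, were lost with the block and a common median scaling (adjusted p = 0.171, 0.119 and 0.2) and when blocking on the recorded experiment (0.0872, 0.219 and 0.193). With the block and quantile normalization only Mcm7 passed (0.0381, against 0.0955 and 0.0657). With the block and 1 array left out they passed in 4, 0 and 1 of 8 fits. The Mcm7 call at 2 h was lost with the block and a common median scaling (0.0896), with the block and quantile normalization (0.055) and when blocking on the recorded experiment (0.0708), and it passed in 2 of 8 fits with 1 array left out. At 1 h 0 of 47 were called in either fit, with 3 and 4 at an unadjusted p under 0.05 without and with the block.

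By phase, all 9 kept probe sets of the G2 and M list lay below 0 at 4 h, where 3795 of all 5877 did. On both array numbers 8 of the 9 were lower, where 42.8% of all kept probe sets were. The median of the 9 was -0.82, from -1.18 (Hmmr, not called) to -0.28 (Plk1, not called), beside -0.16 for all kept probe sets. With arrays scaled to a common median it was -0.62. The members are not on this list. At 4 h the kept probe sets of Cdc25b gave 1.13 and 0.28, and that of Cdk1 -0.26. Those of Ccnb1 gave -0.12 and -0.90, and those of Top2a -0.48, -0.35 and -1.65. Hmmr was dim at 4 h, at 14.3 and 51.9 against 120 and 73.0 in control, and some others of the 9 were dim there too. The 24 probe sets of the S phase list had a median of -0.28, with 9 lower and 5 higher on both numbers. The 14 of the G1 and inhibitor list had a median of -0.10, which became 0.07 under the common median. These counts describe the lists and are no test of them, and Hmmr and Plk1 were named after their values were seen, as the ends of the range.

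**Figure D4:**
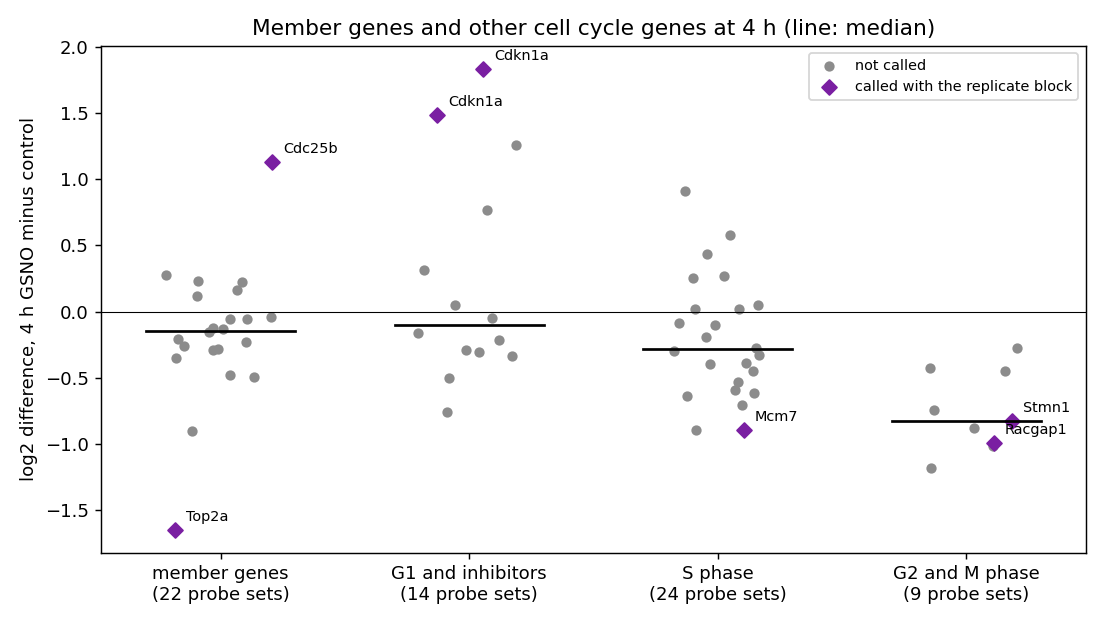
Log2 difference of signal at 4 h of GSNO from control for the 22 member probe sets and, by phase, the 47 kept probe sets of the other cell cycle genes. Lines are medians (-0.14 for the members, -0.82 for G2 and M phase), and diamonds mark probe sets called with the block, among them both of Cdkn1a at 1.83 and 1.48.

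The probe sets most like each member's brightest one were found by Pearson's r of log2 signal over the 8 arrays, among the kept single-symbol probe sets of other genes, 4837 to 4840 in number. They were Maoa for Ccnd1 (0.99), Selenow for Ccnd2 (0.99), Asic1 for Ccnd3 (0.94), Rasa2 for Ccnb1 (0.96), Slc25a14 for Cdk1 (0.99), Prp2l1 for Cdk2 (0.99), Pde5a for Cdk4 (0.93), Pak2 for Pcna (0.94), Kcnmb1 for Top2a (0.98) and Scd for Cdc25b (0.97). After the mean of each array number had been removed, the gene named changed for 8 of the 10 members and was the same for Ccnd3 and Cdk2. It was then Nthl1 for Ccnd1 (0.97), Use1 for Ccnd2 (0.95), Chmp1a for Ccnb1 (0.97), Defb1 for Cdk1 (0.99), Ywhag for Cdk4 (0.99), Serp1 for Pcna (0.95), Pxn for Top2a (0.99) and Gsr, glutathione reductase, for Cdc25b (0.98). With 8 arrays that share runs and so many candidates, values this high are a description only.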

How the data were processed

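RNA of 8 samples was hybridised to Affymetrix rat U34 arrays of the A set. The deposited values are intensity values that the authors computed with GeneChip software 5.0 (named in the series design) as a linear signal for each probe set. Their trimmed mean was between 499.98 and 499.99 on every array, so they were used as deposited. The deposited array records gave the scan day, chip lot and fluidics protocol, and the experiment they name defined a second block.

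An offset of 21.1 signal units, the median of the arrays' 20th percentiles, was added before log2, which understates fold changes of dim probe sets. Of 8740 probe sets that are not array controls, 5877 were kept for a signal at or above the 40th percentile of an array in 2 or more of the 8. All 4 groups entered 1 limma 3.58.1 fit in R 4.3.3 (lmFit, then eBayes with a variance trend, 4 residual degrees of freedom). Except in counts marked unadjusted, p-values are Benjamini-Hochberg adjusted over all kept probe sets, with 0.05 as the threshold. Tests of single comparisons are two-sided, and the F test is not. In tests on simulated data for 4 h against control, with 5877 probe sets, 59% of log2 changes of 2 were recovered without the block and 78% with it, while 3 and 9 unchanged probe sets were called. No change under 2 was simulated. The members' differences from control in these 2 fits were at most 1.65 in size, so recovery at their sizes is not shown. The simulated data held a shift by array number and none by recorded experiment.

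The array number was added as a replicate block in a second fit, given where it changes a call, since all 6 pairs of same-numbered arrays correlated above 0.1 in their deviations. The small number of arrays limits precision. Symbols came from GEO's platform annotation, and all 25 member probe sets matched RefSeq by gene ID. All probe sets of the members are described, and of the other cell cycle genes those called against control in either fit; the probe set most like each member was named by Pearson's r. The members and lists were chosen with earlier results of these data known. Alternatives covered the offset, filter, scaling, trend, blocks, groups in the fit and left-out arrays.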

Additional observations from a re-analysis of the deposited data

Results flagged for a closer look

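Cdc25b D16237_at had a log2 difference of 1.17 between 4 h and 1 h of GSNO, higher at 4 h, in a direct test between exposure times that passed with the replicate block (limma adjusted p = 0.037) and not without it (0.187). It read 324 and 457 at 4 h, against 138 and 184 at 1 h. With the block and 1 array left out, adjusted p ran from 0.0515 to 0.257, so none of these 8 fits passed.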

How the results depend on the processing

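The array number as a replicate block moved the count of called member probe sets to 2 at 4 h against control and to 1 at 4 h against 1 h, from 0 in each, and that of the other cell cycle probe sets to 3 at 2 h and 5 at 4 h, against 0 and 1 without it. It also called 1 of the others at 4 h against 1 h and 2 in the F test, from 0 in each. Blocking on the recorded experiment gave 1 member at 4 h against 1 h, and 2 of the others at 2 h. At 4 h against control it lost Cdkn1a L41275cds_s_at and called Cdkn1a U24174_at. Of the others at 4 h, common median scaling called 2, and 0 were called without the variance trend or with only the 2 groups compared. Leaving out 1 array gave 0 of the others at 4 h in every case. Settings added after seeing the data combined the block with others. With 1 array left out, the blocked fit called 0 to 2 members at 4 h, 0 to 1 at 4 h against 1 h, at 4 h against 2 h and in the F test, and 0 to 3 of the others at 2 h and 0 to 6 at 4 h. With the block and common median scaling the members called were 1 at 4 h, 1 at 4 h against 1 h and 1 in the F test, and the others 2 at 2 h and 2 at 4 h. With the block and quantile normalization they were 2, 1 and 1, and the others 2 and 3. The 11 member probe sets called between the array numbers became 7 without either 2 h array, and lay between 7 and 10 over the arrays left out. Apart from the fits without and with the block, the share of all kept probe sets called is not given here. These counts therefore do not show whether a change concerns the members or the array as a whole. None of the 66 log2 differences of the members from control was called without the block, and 8 of them changed sign under common median scaling, 5 under quantile normalization, 12 when blocking on the recorded experiment and 0 under another offset, no filter or no variance trend. The 60th percentile filter left 48 of these values, of which 0 changed sign, and leaving out 1 array changed the sign of 155 of 1056. The cause of these changes was not tested. Signals near the dim end, such as Cdk2 D28754_s_at, limit what 2 arrays a group can show.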
